A study of Mus musculus with 26 samples.

Results

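The ERBB receptors and their EGF-family ligands were followed in 3 murine EML4-ALK lung cancer lines during ALK inhibition, as candidate bypass signaling. The group comprised 10 genes chosen by name, the receptors Egfr, Erbb2 and Erbb3 and the ligands Areg, Ereg, Hbegf, Tgfa, Epgn, Btc and Nrg1, and all 10 were found among the 55391 gene symbols of the count table. EA1, EA2 and EA3 come from lung tumors of C57BL/6 mice in which Cas9 and guides against Eml4 and Alk created the fusion. EA1 came from a mouse with wild-type Trp53 and EA2 and EA3 from Trp53-null mice, so that every library shares the EML4-ALK fusion and only EA1 carries the wild-type Trp53 background. Cells were cultured with 100 nM alectinib, an ALK inhibitor, or with 0.1% DMSO as control, and poly(A) RNA was sequenced on days 1, 2, 3 and 5. Each combination of line, treatment and day gave 1 library, 24 in all, and no culture was repeated within a day. The 4 days therefore served as replicates, and the p-values measure agreement over days of 1 culture series per line rather than over independent cultures.

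EGFR, ERBB2 and ERBB3 are related receptor tyrosine kinases that signal as dimers, mainly through the RAS-MAPK and PI3K pathways. ERBB2 has no known ligand, ERBB3 has little kinase activity of its own and depends on its partners, and ERBB4 is the remaining member of the family. Amphiregulin (Areg), epiregulin (Ereg), heparin-binding EGF-like growth factor (Hbegf), transforming growth factor alpha (Tgfa), epigen (Epgn) and betacellulin (Btc) bind EGFR, and neuregulin 1 (Nrg1) binds ERBB3 and ERBB4. The ligands are made as membrane-bound precursors that proteases release from the cell surface. In lung epithelium the family takes part in growth and repair, and ERBB signaling is a known route by which ALK-driven lung cancer cells can tolerate an ALK inhibitor. Transcript levels report neither shed ligand nor receptor phosphorylation.

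Libraries held 5780062 to 11732401 counts (median 9252878), so that a floor of 3 counts corresponds to between 0.256 and 0.519 CPM of the plain library total, before TMM scaling. CPM are counts relative to library size, and those printed below were scaled with edgeR's TMM factors. The known MAPK-responsive genes Etv4, Etv5, Fosl1 and Dusp6 all fell with alectinib in each line, with log2 fold changes from -6.66 to -2.28. Epithelial markers differed between lines, since Epcam lay between 75.7 and 213 CPM in EA3 DMSO libraries, at most at 3.31 CPM in EA1 DMSO libraries and at most at 0.631 CPM in EA2 DMSO libraries, and it was at 0 in all EA2 alectinib libraries, whereas Cdh1 and Krt18 were detected in all 3 lines. Krt18 fell with alectinib in each line (log2 values of -1.55, -1.79 and -1.16, adjusted p = 0.00323, 0.00146 and 0.0152 by edgeR), while Cdh1 rose in EA2 and EA3 (1.55 and 0.62, adjusted p = 0.000109 and 0.0297 by edgeR). Of the other epithelial markers, Epcam rose in EA1 (2.41, adjusted p = 0.00517 by edgeR), and in EA2 Krt7 rose and Krt8 fell (3.30 and -2.61, adjusted p = 0.000634 and 0.000346 by edgeR). The sum of the 7 epithelial markers lay between 4795 and 9175 CPM in DMSO and between 3215 and 5404 CPM with alectinib in EA1, between 1821 and 2687 and between 562 and 1178 CPM in EA2, without overlap there, and between 5374 and 7959 and between 3564 and 8536 CPM in EA3. Of 4 lung epithelial markers, Nkx2-1 and Sftpc were at 0 or near it in every library of days 1 to 5, with at most 0.751 CPM. Foxa2 was detected in each line, at means of 23.2, 10.1 and 40.8 CPM in EA1, EA2 and EA3 DMSO libraries, and it fell with alectinib in EA3 (log2 value -1.66, adjusted p = 0.000230 by edgeR). The summed level of 6 fibroblast markers lay between 9.55 and 45.3 CPM in DMSO and between 125 and 468 CPM with alectinib in EA1, between 38.9 and 56.3 and between 52.3 and 169 CPM in EA2, where the groups overlapped, and between 9.34 and 18.6 and between 79.9 and 261 CPM in EA3. Of these 6 markers, 1 to 4 were at or under 3 counts in every library of a group, and Thy1 and Pdgfrb were at 0 in EA3 DMSO libraries. Col1a1 rose by log2 values of 3.17, 2.64 and 3.37 in EA1, EA2 and EA3 (adjusted p = 0.000879, 0.0121 and 0.000413 by edgeR). Col3a1 rose by 6.47, 1.85 and 6.59 (adjusted p = 3.80e-06, 0.0444 and 0.000432 by edgeR). Dcn and Pdgfrb passed as higher in EA1 and EA3 but not in EA2, and Pdgfra passed in no line. The sum of 5 leukocyte markers lay between 1.502 and 9.42 CPM in EA1 DMSO libraries, 11.0 and 87.3 CPM in EA2 and 6.02 and 95.2 CPM in EA3, with Cd68 reaching 87.1 CPM in EA2 and 92.7 CPM in EA3, and with alectinib between 1.64 and 6.18, 12.5 and 51.1, and 8.58 and 27.7 CPM, with overlap in each line. The sum of 3 endothelial markers stayed at or under 9.17 CPM in every library, and in EA2 it lay between 1.98 and 5.70 CPM in DMSO and between 0.173 and 0.887 CPM with alectinib, where Pecam1 fell (log2 value -2.43, adjusted p = 0.0213 by edgeR). The part of these marker shifts in the results below was not tested, and in these bulk samples fewer cells of a type and less RNA per cell cannot be told apart. A further pair of libraries carries the label EA3 day 7, and these correlated more closely with EA2 (r = 0.956 in DMSO and 0.988 in alectinib, across 14335 genes of the day 5 libraries) than with EA3 (r = 0.858 and 0.852). They were left out of all results below except the alternative named as all 26 libraries and the values given under the day 7 label.

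Upstream sequence is shown for Areg, Btc and Tgfa, 3 ligand genes whose transcripts fell with alectinib in each line and for which a window was at hand. The 250 bases before the annotated start were taken from RefSeq (GRCm38.p6), which matched 6 of the 10 genes. Capitals mark a match to the cAMP response element TGACGTCA, searched with the AP-1 motif TGAGTCA and the ETS motif CCGGAAGT on both strands. The Areg window is chr5:91139349-91139598 on the plus strand, the Btc window chr5:91402995-91403244 on the minus strand and the Tgfa window chr6:86194972-86195221 on the plus strand.
Areg: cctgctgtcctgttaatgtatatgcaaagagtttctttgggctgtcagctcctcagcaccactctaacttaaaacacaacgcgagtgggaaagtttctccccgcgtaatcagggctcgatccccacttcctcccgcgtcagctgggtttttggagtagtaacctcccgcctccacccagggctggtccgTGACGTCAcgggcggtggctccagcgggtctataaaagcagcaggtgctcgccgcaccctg
Btc: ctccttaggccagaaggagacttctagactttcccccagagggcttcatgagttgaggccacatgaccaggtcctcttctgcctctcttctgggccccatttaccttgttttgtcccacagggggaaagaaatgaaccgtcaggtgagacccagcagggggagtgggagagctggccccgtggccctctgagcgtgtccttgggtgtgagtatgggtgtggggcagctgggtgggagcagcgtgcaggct
Tgfa: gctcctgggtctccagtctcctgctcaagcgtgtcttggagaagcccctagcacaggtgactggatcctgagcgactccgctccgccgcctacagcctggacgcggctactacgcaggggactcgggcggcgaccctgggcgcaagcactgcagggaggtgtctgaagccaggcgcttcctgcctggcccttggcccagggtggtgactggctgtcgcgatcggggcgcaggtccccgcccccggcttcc
Among the 6 windows, that of Areg held the cAMP response element, 61 to 54 bases before the start, and no window held the AP-1 or the ETS letters. Over all 32851 windows of this length, 1.55% held the cAMP response element, 4.46% the AP-1 motif and 2.88% the ETS motif. A match is a description of the letters and does not show that a factor binds.

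Alectinib lowered Areg, Btc, Hbegf, Ereg and Tgfa, the 5 EGFR ligands of the group that could be tested, in all 3 lines, and it raised Nrg1 in all 3. Egfr rose in EA2 and EA3, Erbb2 rose slightly in each line, and Erbb3 fell in EA2. With edgeR (quasi-likelihood fit, p adjusted after Benjamini and Hochberg over 14264 genes, threshold 0.05), 9 of the 10 members were tested, because Epgn had at most 5 counts in any library. In EA1, 7 of the 9 changed, 2 higher and 5 lower, where 18.0% of all genes were higher and 15.8% lower. In EA2, 9 of 9 changed, 3 higher and 6 lower, against 13.0% and 11.3% of all genes. In EA3, 8 of 9 changed, 3 higher and 5 lower, against 16.5% and 15.8%. The median log2 fold change of the 9 members was -0.82, -1.74 and -1.51 in EA1, EA2 and EA3, beside 0.026, 0.000 and 0.037 for all genes. The 4 alectinib libraries lay wholly below the 4 DMSO libraries of their line for 4 of 10 members in EA1, 6 in EA2 and 5 in EA3, where this held for 13.8%, 12.6% and 11.4% of all genes tested. They lay wholly above for 1, 3 and 3 members, against 17.3%, 14.3% and 12.2% of all genes.

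**Figure D1:**
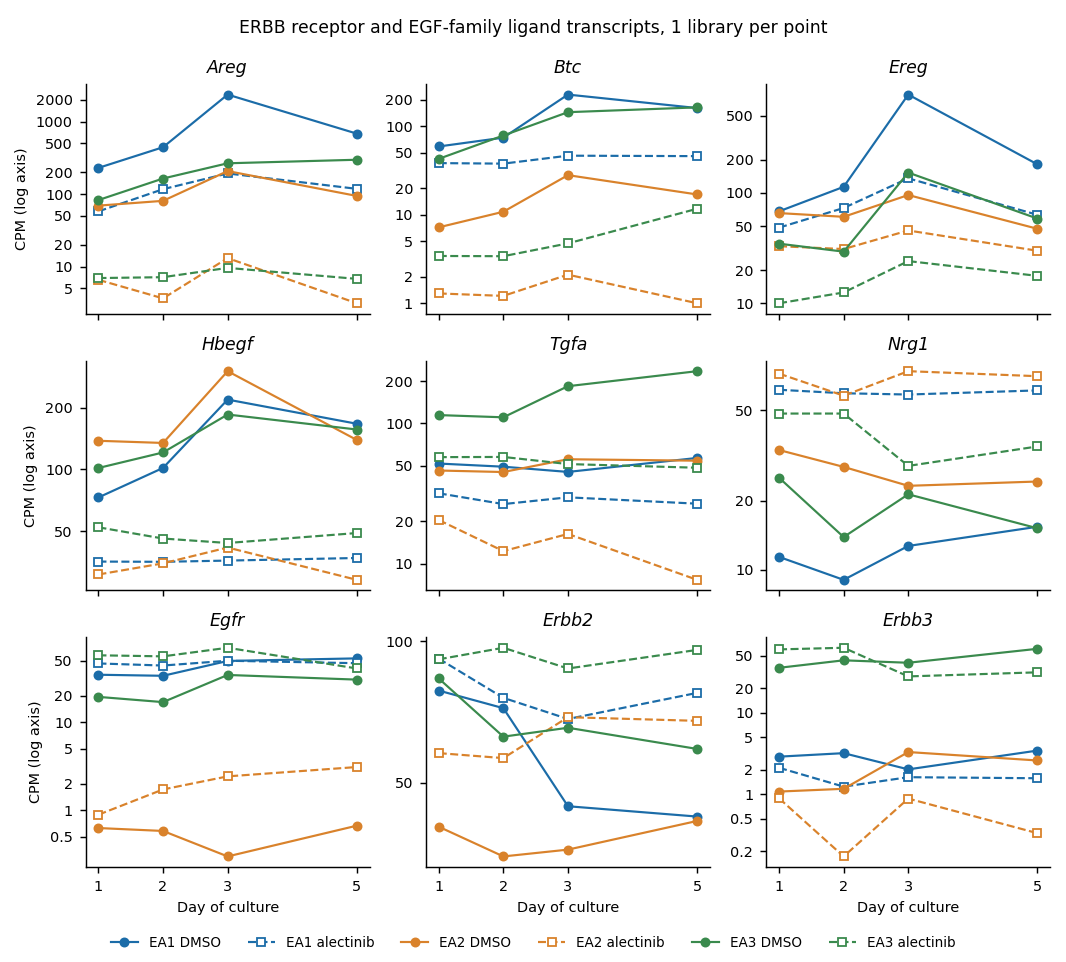
Level of the 9 tested members in CPM on a logarithmic axis against the day of culture, with 1 point per library. Filled circles and full lines are DMSO, open squares and dashed lines are alectinib, and colors mark the lines. The alectinib lines of Areg, Btc, Hbegf and Tgfa run below the DMSO lines of the same color on each day, and those of Nrg1 run above.

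Areg showed the largest log2 fall among the tested members in each line. In DMSO it had the highest mean level per kilobase of exon, although in EA2 its range overlapped that of Hbegf, which was higher in CPM on each day. The gene lies on chromosome 5 from 91139599 to 91148432 of mm10, and the upstream window with the cAMP response element printed above is its own. In EA1, Areg stood at 230.3, 444, 2367 and 684 CPM in DMSO on days 1, 2, 3 and 5 and at 57.8, 117, 193 and 118 CPM with alectinib. The corresponding values were 69.4, 80.8, 208 and 94.3 CPM against 6.56, 3.64, 13.1 and 3.11 CPM in EA2, and 82.8, 164, 266 and 298 CPM against 6.94, 7.13, 9.58 and 6.76 CPM in EA3. Treated and control libraries did not overlap in any line, and the EA1 DMSO library of day 3, with 21069 counts, stood far above its neighbors. On the log2 scale EA1 changed by -2.51 ± 0.32 (fitted value ± standard error, edgeR, adjusted p = 0.000101). The change was -4.15 ± 0.36 for EA2 and -4.59 ± 0.36 for EA3 (adjusted p = 7.35e-06 and 3.88e-06 by edgeR). EA2 and EA3 thus kept 0.0564 and 0.0415 of the DMSO level, whereas EA1 kept 0.175.

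Btc, a ligand of EGFR and ERBB4, had the next largest fall after Areg in EA2 and EA3, whereas in EA1 Hbegf came between them. It lies 209 kb further along the same chromosome in the cluster that also holds Ereg and Epgn, which spans 376 kb of chromosome 5 from 91027464 to 91402994. In EA1 its DMSO libraries gave 59.0, 74.2, 227 and 160.2 CPM and its alectinib libraries 38.3, 37.8, 46.4 and 45.9 CPM. EA2 libraries gave 7.21, 10.8, 28.0 and 16.9 CPM in DMSO and 1.29, 1.21, 2.11 and 1.00 CPM with alectinib, and EA3 libraries 42.8, 78.5, 144 and 163 CPM and 3.42, 3.40, 4.74 and 11.7 CPM. Each alectinib value lay under the lowest DMSO value of its line, although EA2 alectinib libraries held only 7 to 19 counts. Fitted log2 changes with their standard errors were -1.43 ± 0.28, -3.39 ± 0.36 and -4.21 ± 0.32 (EA1, EA2, EA3, adjusted p = 0.00195, 2.87e-05 and 3.07e-06 by edgeR).

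Hbegf, which binds EGFR and ERBB4 and is held at the cell surface by heparan sulfate, lies on chromosome 18 from 36504927 to 36515805. Its DMSO ranges overlapped between the lines, with 72.9, 102, 219 and 167 CPM in EA1, 138, 134, 301 and 139 CPM in EA2 and 102, 121, 185 and 156 CPM in EA3. With alectinib it settled into a narrow range, at 35.5, 35.4, 35.9 and 37.0 CPM in EA1, 30.7, 34.8, 41.6 and 28.9 CPM in EA2 and 52.2, 46.0, 43.7 and 48.9 CPM in EA3. No treated library reached a control library of its line. The log2 change came to -1.84, -2.31 and -1.53 for EA1, EA2 and EA3 (adjusted p = 0.000146, 2.94e-05 and 0.000463 by edgeR).

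Ereg, on chromosome 5 from 91074622 to 91093646, fell less evenly. EA1 gave 68.1, 114, 780.2 and 182 CPM in DMSO and 48.5, 73.0, 136 and 63.3 CPM with alectinib, so that the groups overlapped even though alectinib was lower on 4 of 4 days. EA2 gave 65.7, 60.7, 95.8 and 47.3 CPM against 32.9, 31.0, 45.7 and 29.9 CPM, and EA3 34.7, 29.3, 153 and 58.5 CPM against 9.99, 12.5, 24.1 and 17.7 CPM, without overlap. Its log2 changes were -1.29, -0.93 and -1.87 (adjusted p = 0.00459, 0.0301 and 0.000503 by edgeR). The call in EA2 was lost without the block for day (-0.95), without day 1 (-0.90), without day 2 (-0.92) and without day 5 (-1.01).

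Tgfa, which binds EGFR alone, lies on chromosome 6 from 86195223 to 86275719, and its upstream window printed above held no match. EA1 libraries gave 51.7, 49.1, 45.1 and 56.7 CPM in DMSO and 31.7, 26.6, 29.7 and 26.8 CPM with alectinib, and EA2 libraries 46.1, 44.98, 55.5 and 54.2 CPM and 20.5, 12.3, 16.3 and 7.67 CPM. EA3 started from a higher level, with 114, 110.4, 184 and 235 CPM in DMSO and 57.4, 57.6, 51.3 and 48.3 CPM with alectinib. The groups did not overlap in any line. For Tgfa, edgeR gave log2 changes of -0.82, -1.89 and -1.51 (adjusted p = 0.0219, 0.000178 and 0.000635 by edgeR), and in EA1 the call was lost without day 2 (-0.83), without day 3 (-0.91) and with all 26 libraries (-0.86). Epgn, the other EGFR ligand among the members, was at 0 to 5 counts in each library, which is too few for a comparison.

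Nrg1 moved the other way. The gene spans chromosome 8 from 31814551 to 32884029, and its exons overlap Gm26578 on the other strand over 4.7% of their bases. EA1 rose from 11.4, 9.02, 12.7 and 15.4 CPM in DMSO to 61.4, 59.2, 58.5 and 61.0 CPM with alectinib. EA2 rose from 33.4, 28.2, 23.3 and 24.3 CPM to 72.2, 57.8, 74.0 and 70.4 CPM, and EA3 from 25.3, 13.9, 21.4 and 15.2 CPM to 48.3, 48.3, 28.5 and 34.6 CPM. The treated libraries lay above the control libraries in all 3 lines. With alectinib the ranges of EA1 and EA2 overlapped. The rise amounted to 2.33 ± 0.21, 1.34 ± 0.20 and 1.08 ± 0.20 on the log2 scale (EA1, EA2, EA3, ± standard error, adjusted p = 6.98e-06, 0.000318 and 0.00149 by edgeR).

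**Figure D2:**
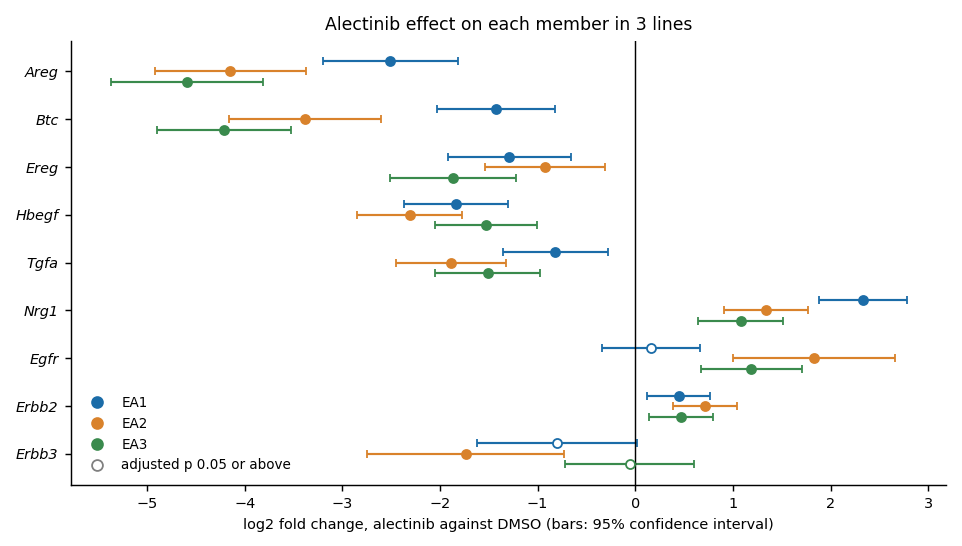
Log2 fold change of alectinib against DMSO for the 9 tested members, with 1 point per line and bars for the 95% confidence interval from edgeR. Open points did not pass the adjusted threshold. The intervals of the 5 EGFR ligands lie below 0 and those of Nrg1 and Erbb2 above 0 in each line, while Egfr in EA1 and Erbb3 in EA1 and EA3 span 0.

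Of the receptors, Erbb2, the preferred dimerization partner of the family, had the highest mean level per kilobase of exon in each line and treatment. It lies on chromosome 11 from 98412470 to 98437716. EA1 libraries gave 78.5, 72.0, 44.6 and 42.4 CPM in DMSO and 91.8, 75.8, 68.3 and 77.6 CPM with alectinib, EA2 libraries 40.4, 34.9, 36.1 and 41.5 CPM and 57.8, 56.4, 68.9 and 67.7 CPM, and EA3 libraries 83.3, 62.7, 65.5 and 59.0 CPM and 91.5, 96.8, 87.5 and 95.8 CPM. Alectinib was higher on 4 of 4 days in each line, without overlap in EA2 and EA3 and with overlap in EA1. Erbb2 thus changed by 0.44, 0.71 and 0.47 on the log2 scale (adjusted p = 0.0364, 0.00389 and 0.0294 by edgeR). Those in EA1 and EA3 lay close to the threshold and no longer passed without the block for day (0.40 and 0.46), without day 2 (0.54 and 0.40), without day 3 (0.37 and 0.49) or without day 5 (0.31 and 0.42). The same held with no filter on low counts (0.42 and 0.46), with each line fitted alone (0.44 and 0.49) and, in EA1, with all 26 libraries (0.41).

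Egfr, the receptor of the ligands that fell, lies on chromosome 11 from 16752203 to 16918158 and differed widely between the lines. EA1 libraries gave 34.9, 33.9, 50.0 and 53.5 CPM in DMSO and 46.8, 44.3, 50.3 and 47.1 CPM with alectinib, and the groups overlapped. EA3 rose from 19.5, 17.0, 34.7 and 30.7 CPM to 58.0, 56.4, 70.6 and 41.1 CPM without overlap. In EA2 the transcript was near the floor, with 7, 4, 3 and 8 counts in DMSO and 9, 10, 22 and 28 counts with alectinib, that is 0.300 to 0.671 CPM and 0.894 to 3.11 CPM, and every treated library lay above the controls. The log2 change of Egfr was 0.16, 1.83 and 1.19 for EA1, EA2 and EA3 (adjusted p = 0.624, 0.00359 and 0.00227 by edgeR). The 95% interval in EA1 ran from -0.34 to 0.66. Even after its rise, Egfr in EA2 stood at 2.04 ± 0.952 CPM (SD, n = 4 days), against 56.5 ± 12.1 CPM in EA3 and 47.2 ± 2.43 CPM in EA1 with alectinib.

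Erbb3, the receptor of Nrg1, lies on chromosome 10 from 128567523 to 128589652 and was well expressed in EA3 alone. There it stood at 35.6, 44.0, 41.0 and 60.9 CPM in DMSO and 59.8, 62.7, 27.9 and 31.3 CPM with alectinib, higher on days 1 and 2 and lower on days 3 and 5. The log2 fold change in EA3 was -0.06 (adjusted p = 0.905 by edgeR, 95% interval -0.72 to 0.61). EA1 libraries held 18 to 28 counts in DMSO and 10 to 22 in treated cells, which gave -0.80 on the log2 scale (adjusted p = 0.119 by edgeR). EA2 libraries held 12, 8, 33 and 31 counts in DMSO and 9, 1, 8 and 3 in treated cells, which gave -1.74 (adjusted p = 0.0155 by edgeR). Treated EA2 libraries lay below the controls in CPM, but the call rests on these few reads and was lost without day 2 (-1.64), without day 3 (-1.67) and without day 5 (-1.35). Among the other family genes, Erbb4 had at most 3 counts and Nrg3 at most 1 count in any library of days 1 to 5. Egf, a further EGFR ligand, was tested at low levels with log2 values of -0.27, 1.29 and 0.81 in EA1, EA2 and EA3 (adjusted p = 0.805, 0.0564 and 0.178 by edgeR). Nrg2 did not pass in any line either, with log2 values of -1.57, -1.77 and -1.08 (adjusted p = 0.214, 0.0638 and 0.336 by edgeR). In EA2, however, it lay between 3.30 and 4.67 CPM in DMSO and between 0.667 and 1.56 CPM with alectinib, without overlap. Nrg4 did not reach the filter.

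In DMSO cultures, 8 of the 9 tested members differed between the lines, where 55.6% of 12886 genes did (edgeR's test with 2 degrees of freedom over the 12 DMSO libraries). Hbegf was the exception (adjusted p = 0.185). Egfr separated EA2 from the others, with a log2 difference of -6.26 to EA1 (adjusted p = 1.39e-08 by edgeR) and of 5.48 between EA3 and EA2 (adjusted p = 6.46e-08 by edgeR). Erbb3 separated EA3, which lay above EA1 by a log2 difference of 3.95 and above EA2 by 4.47 (adjusted p = 1.98e-06 and 6.45e-07 by edgeR). EA1 had the most Areg, with EA2 lower by a log2 difference of -2.66 and EA3 by -1.81 (adjusted p = 5.19e-05 and 0.00107 by edgeR). Btc was scarce in EA2, at a log2 difference of -3.01 to EA1 (adjusted p = 1.76e-07 by edgeR), and Tgfa was highest in EA3, at 1.62 above EA1 (adjusted p = 6.06e-05 by edgeR). Nrg1 was higher in EA2 than in EA1 by 1.18 (adjusted p = 0.00154 by edgeR). These differences are between 3 single lines that also differ in Trp53 and in origin, and neither can be told apart from the line.

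**Figure D3:**
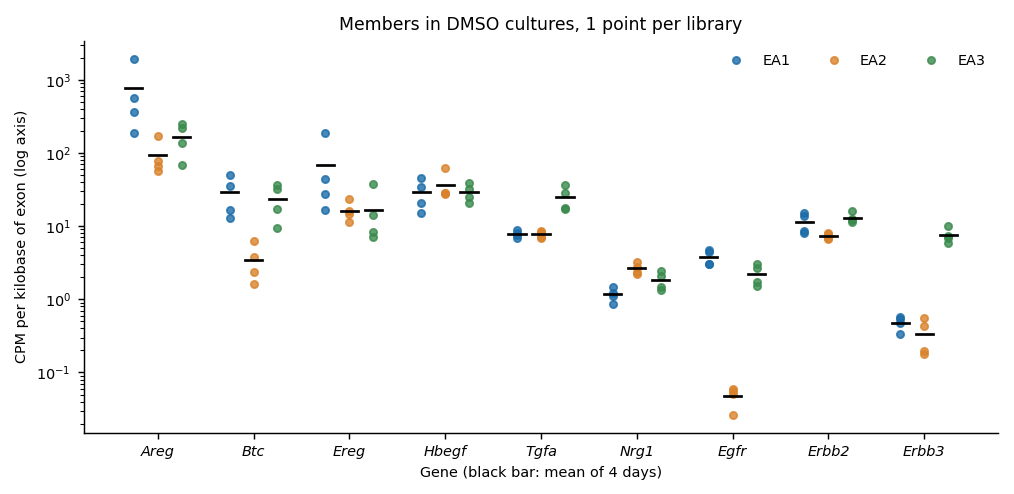
Level of the 9 tested members in DMSO cultures as CPM per kilobase of exon on a logarithmic axis, with 1 point per library and a black bar at the mean of the 4 days. Areg has the highest mean in each line, Egfr is lowest in EA2 (0.0482 CPM per kilobase) and Erbb3 is highest in EA3 (7.54 CPM per kilobase).

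Lines differed in the size of the response to alectinib for 3 of the 9 members, Areg, Btc and Nrg1, where 7.05% of all genes did (edgeR's test with 2 degrees of freedom, adjusted p = 0.0258, 0.00358 and 0.0336). Areg and Btc fell less in EA1, with log2 differences of -2.08 (95% interval -3.05 to -1.11) and -2.79 (-3.67 to -1.91) between EA3 and EA1. Between EA3 and EA2 the differences were -0.45 (-1.46 to 0.57) and -0.83 (-1.87 to 0.22). Nrg1 rose more in EA1 than in EA3, by a log2 difference of -1.25 between EA3 and EA1 (-1.87 to -0.63), while the difference of -0.99 between EA2 and EA1 (-1.60 to -0.38) did not pass (adjusted p = 0.0529 by edgeR). The difference for Btc held under each alternative that tested it, with an adjusted p of at most 0.0496 by edgeR. With 7 to 19 counts in EA2 alectinib libraries, Btc was not tested under the filter of at least 10 counts in every library. The difference for Areg was lost without the block for day (adjusted p = 0.319 by edgeR) and without day 2, 3 or 5 (adjusted p = 0.131, 0.0606 and 0.138 by edgeR). That for Nrg1 was lost without day 1, 3 or 5 (adjusted p = 0.142, 0.124 and 0.105 by edgeR). For Egfr, the adjusted p was 0.0516 in edgeR's test, on the edge of the threshold, and it ranged from 0.00147 to 0.247 over the alternatives. Its rise in EA2 exceeded that in EA1 by a log2 difference of 1.67 (95% interval 0.70 to 2.65, adjusted p = 0.0430 by edgeR), with Egfr near the floor in EA2. Erbb2 gave no difference past the threshold (adjusted p = 0.592 by edgeR), and its log2 fold change in EA2 exceeded that in EA1 by 0.27 (95% interval -0.19 to 0.73).

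Of the ligands, 3 changed with time in control cultures, and Ereg, Tgfa and Nrg1 did not pass. Per doubling of days in DMSO, as a mean of the 3 lines, Areg rose by 0.83, Btc by 0.80 and Hbegf by 0.39 on the log2 scale, and Erbb2 fell by 0.21 (by edgeR, adjusted p = 0.0472, 0.00287, 0.0361 and 0.0255). These were 3 of 9 members higher and 1 lower, where 10.6% of all genes were higher and 11.7% lower. The count was 0 without day 1, 1 without day 2 and 7 without day 3, so that the trends depend on single days. Areg, Ereg, Btc and Hbegf had their highest DMSO value on day 3 in EA1 and EA2. With alectinib, 0 of 9 members changed with days by edgeR, where 0.505% of all genes did. The number past the adjusted threshold was also 0 under each alternative that fitted a trend. At an unadjusted p under 0.05 it was 1 in the fit reported here. The alectinib effect itself changed with days for 1 member, Tgfa, by -0.45 per doubling (adjusted p = 0.0472 by edgeR), where 2.16% of all genes had a lower effect with time. That call was lost without day 1, 2 or 5, and without day 3 the number of members was 3.

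Summed per kilobase of exon, the EGFR ligands outweighed the receptors in every DMSO library. With alectinib they came close to the sum of the 3 receptors in EA3, and stayed above it in each library of EA1 and EA2. The ligand sum fell from 901 ± 911 (SD, n = 4 days) to 141 ± 55.1 CPM per kilobase in EA1, from 158 ± 76.5 to 23.5 ± 7.04 in EA2 and from 262 ± 118 to 29.6 ± 1.64 in EA3. The EA1 DMSO mean rests on day 3 at 2240.1 CPM per kilobase, since days 1, 2 and 5 stood at 242, 438 and 685, each above the highest alectinib value of 214. The sum of the 3 receptors went from 15.7 ± 2.72 to 19.5 ± 1.85, from 7.72 ± 0.649 to 12.3 ± 1.33 and from 22.8 ± 1.47 to 30.4 ± 3.43 CPM per kilobase. The ratio of ligand to receptor transcripts therefore moved from between 13.0 and 168 to between 3.62 and 12.0015 in EA1, from between 13.8 and 36.2 to between 1.30 and 2.46 in EA2 and from between 5.28 and 15.8 to between 0.825 and 1.15 in EA3. Treated and control libraries did not overlap in this ratio in any line. Most of the receptor sum was Erbb2, whose protein has no known ligand. Its mean was 7.33 of 7.72 CPM per kilobase in EA2 DMSO and 17.8 of 30.4 in EA3 with alectinib. Egfr, the receptor of the summed ligands, had means of 0.0482 and 4.99 CPM per kilobase in these 2 groups. The ratio therefore does not compare the ligands with Egfr alone. With the length of the longest transcript, an alternative chosen after seeing the data, the EA3 ratio with alectinib lay between 1.09 and 1.43, above 1 on each day. Areg made up 51.8% to 87.0% of the EGFR ligand sum over the DMSO libraries, 59.5% to 74.2% in EA1 with alectinib and 14.8% to 32.2% in EA2 and EA3 with alectinib. Nrg1 rose from at most 2.85% of the summed level of the 7 member ligands in DMSO to between 17.6% and 28.2% in EA2, between 7.98% and 14.3% in EA3 and between 2.57% and 6.90% in EA1. That sum leaves out Egf, Nrg2, Nrg3 and Nrg4. The share depends on the length used, which for Nrg1 is 10351 bases of exon but 5415 in the longest transcript, and was not computed with the latter.

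**Figure D4:**
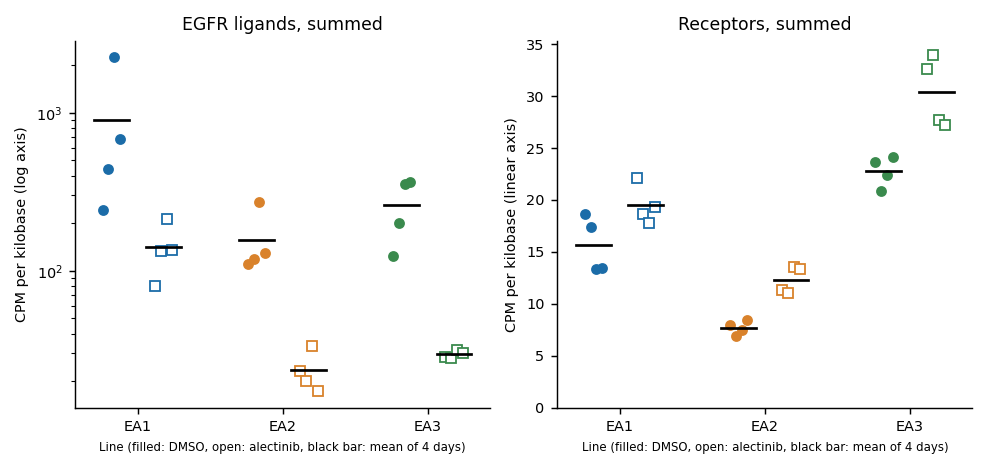
Sum of the 6 EGFR ligands, on a logarithmic axis, and of the 3 receptors, on a linear axis from 0, in CPM per kilobase of exon for each library. Filled circles are DMSO, open squares alectinib, and black bars the mean of 4 days. The ligand sums of treated libraries lie below those of the control libraries of their line, and the receptor sums of treated libraries lie above them in EA2 and EA3.

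Within a line, the order of levels changed with treatment. In DMSO, Areg was first in each line, at 767 ± 802, 93.1 ± 52.8 and 167 ± 81.0 CPM per kilobase in EA1, EA2 and EA3. The mean in EA1 is drawn up by day 3, the library noted above. The range of Areg was apart from the next member in EA1 (Ereg) and EA3 (Hbegf), and overlapped that of Hbegf in EA2. Hbegf, Tgfa, Btc and Ereg followed in EA3, each overlapping the next. With alectinib, Areg stayed first in EA1 at 100.0 ± 45.5 CPM per kilobase, apart from Ereg, which overlapped Erbb2. In EA3, Erbb2 came first at 17.8 ± 0.822 CPM per kilobase, apart from Hbegf at 9.87 ± 0.756, but with the length of the longest transcript their ranges overlapped (17.4 to 19.3 and 15.1 to 18.0 CPM per kilobase). In EA2, Erbb2 (12.04 ± 1.25), Ereg (8.44 ± 1.77), Hbegf (7.03 ± 1.16), Nrg1 (6.63 ± 0.71) and Areg (5.43 ± 3.77) followed each other with overlapping ranges. With the length of the longest transcript in place of all exons, Nrg1 came before Erbb2 there, since the 2 lengths of Nrg1 are 10351 and 5415 bases.

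Genes that act on the family around the receptors were also counted. The shares of all tested genes were 18.0%, 13.0% and 16.5% higher and 15.8%, 11.3% and 15.8% lower (EA1, EA2, EA3). In EA1, 1 of 6 genes for shedding and ligand trafficking was higher and 1 lower. In EA2 0 passed, and in EA3 1 was higher and 1 lower. The EA1 and EA3 counts of this list lay close to the shares of all genes. No gene of the list passed in 2 or more lines. Of 13 genes that restrain or turn over the receptors, 1 was higher and 6 lower in EA1, 3 were lower in EA2, and 1 was higher and 4 lower in EA3. Errfi1, a feedback inhibitor that binds the EGFR kinase, fell in each line, by log2 values of -1.28, -1.97 and -1.38 (adjusted p = 0.000754, 4.39e-05 and 0.000478 by edgeR). Socs5, which promotes EGFR degradation, had values of -1.06, -1.35 and -1.37 (adjusted p = 0.000270, 5.03e-05 and 5.00e-05 by edgeR), and the CBL-binding adaptor Sh3kbp1 of -0.71, -0.71 and -0.82 (adjusted p = 0.0228, 0.0270 and 0.0113 by edgeR). Of the phosphatases that act on the receptors, Ptpn12 fell in EA1 and EA3 (-0.39 and -0.65, adjusted p = 0.0432 and 0.00340 by edgeR), and Ptpn1 rose there (0.65 and 0.50, adjusted p = 0.00351 and 0.0151 by edgeR). The call of Ptpn12 in EA1 was lost without any 1 of the 4 days (-0.44 to -0.29) and also with either other scaling, with either other filter on low counts, without the block and with EA1 fitted alone (-0.41 to -0.27). The call of Ptpn1 in EA3 was lost without day 2 (0.49) or day 5 (0.38), with no filter (0.50) and with EA3 fitted alone (0.53). That of Sh3kbp1 was lost without day 3 (-0.45) or day 5 (-0.69) and with EA1 fitted alone (-0.71) in EA1, without day 2 (-0.72) or day 5 (-0.70) in EA2 and without day 5 (-0.76) in EA3.

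Of 12 adaptor and PI3K genes, 3 were higher and 1 lower in EA1 and 4 higher and 1 lower in EA2 and in EA3. The docking protein gene Gab1 rose in each line, by log2 values of 1.22, 2.12 and 1.86 (adjusted p = 0.000306, 8.67e-06 and 2.42e-05 by edgeR). So did Pik3r1, the regulatory subunit of PI3K, with 2.14, 2.27 and 1.41 (adjusted p = 4.75e-05, 3.36e-05 and 0.000992 by edgeR). The catalytic subunit gene Pik3cb rose in EA2 and EA3 (1.10 and 0.90, adjusted p = 0.00297 and 0.00882 by edgeR), and its call in EA3 was lost without day 2 (0.62). Pik3ca fell in EA2 and EA3 (-0.64 and -0.63, adjusted p = 0.00229 and 0.00199 by edgeR). The counts called in these lists are to be read against the shares of all genes in the same line, given with the shedding genes. The median log2 fold change of the 13 restraint genes was -0.39, -0.07 and -0.12 in EA1, EA2 and EA3, and that of the 12 adaptor and PI3K genes 0.06, 0.19 and 0.10.

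The daily log2 ratios of alectinib to DMSO were compared with those of 9928 other genes over 12 pairs of libraries, 3 lines by 4 days, as a description. Pairs share the line and the day, and each ratio shares its DMSO library with all other genes of that pair. Areg was most like Gcnt2 (Pearson's r = 0.944), Btc like Ap3s2 (0.943), Hbegf like Stk38l (0.973), Ereg like Ube2g1 (0.923) and Tgfa like AI661453 (0.939). Nrg1 was most like Lgr4 (0.920), Egfr like Tmem170 (0.955) and Ccn1 (0.945), Erbb2 like Htra2 (0.890) and Erbb3 like Plekhh1 (0.910). Within the group, the ratios of Areg and Btc ran most closely together (0.890), and the lowest value was that of Erbb2 and Hbegf (-0.73).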

How the data were processed

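Libraries were prepared from poly(A) RNA with a stranded kit and sequenced in pairs. Per the labels and the study's methods, the authors trimmed reads, aligned them with STAR to mm10 and counted reads per gene, and the deposited values are raw counts. Versions, the annotation release and the strand column counted are not given in the sources used here. Rows that name no gene (24, 0.129% to 0.201% of counts) were left out, leaving 55391 symbols. Genes were filtered with filterByExpr, scaled by TMM and tested with edgeR 4.0.16 (R 4.3.3) in 1 quasi-likelihood fit with line, treatment and a block for line and day, with Benjamini-Hochberg adjustment at 0.05. The block follows from the labelled days, which pair DMSO and alectinib libraries. Deviations of paired libraries from their group means correlated between -0.3 and 0.549. Alternatives included DESeq2 1.42.0. Exon lengths and coordinates came from GENCODE M21. All members were named, with other genes of each pathway list named where past the threshold in at least 2 lines in 1 direction. The members and lists were chosen with earlier results of these data known. The fits were tested on simulated data. For the alectinib effect, 118 to 121 of 193 changed genes were called, and 4 to 9 of 13486 unchanged genes. For its difference between lines, 80 of 193 changed genes were called, and 6 of 13483 unchanged genes. The simulated libraries of a day shared no day effect, unlike cultures paired by day.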

Additional observations from a re-analysis of the deposited data

Results flagged for a closer look

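Of 60 groups of a member, a line and a treatment, 5 held a day that stood far from the other 3, by an outlier rule with a nominal rate of about 1 in 20. The rate by chance in these data was not measured. Ereg reached 780.2 CPM in EA1 DMSO and Hbegf 301.2 CPM in EA2 DMSO, both on day 3. Areg reached 9.583 CPM on day 3 in EA3 alectinib, and Btc 11.69 CPM on day 5 of the same series. Epgn gave 0.4142 CPM on day 5 in EA1 alectinib, which is 5 counts or fewer.

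Responses to alectinib were unequal among the lines for Areg (edgeR, adjusted p = 0.0258), Btc (0.003577) and Nrg1 (0.03359).

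In the library labelled EA3 alectinib day 7, which entered a fit only in the alternative with all 26 libraries, Nrg1 stood at 78.32 CPM, against 38.3 CPM in the DMSO library of that day.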

How the results depend on the processing

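Over the alternatives, 287 values of the members' log2 fold changes kept their direction and side of the threshold, 23 no longer passed it and 4 reversed. The reversals were all of Erbb3 in EA3, at 0.088 with library size alone, 0.0038 without the replicate block, 0.12 without day 3 and 0.27 without day 5, within -0.30 to 0.27 when a day was left out. Without the block for day, 6, 8 and 7 members passed in EA1, EA2 and EA3 in place of 7, 9 and 8. Members whose effect differed between lines numbered 6 in place of 3 with no filter on low counts, and 1 to 3 when a day was left out. Members whose effect changed with days numbered 0 in place of 1 with library size alone or with no filter, 2 with at least 10 counts in every library, and 0 to 3 when a day was left out. Members with a trend over days in DMSO numbered 0 to 7 in place of 4 when a day was left out. Among the other genes named, Pik3cb in EA1 turned to 0.017 with library size alone and to 0.12 without day 3, within -0.31 to 0.12, and Ptpn12 in EA2 turned to -0.014 with DESeq2's size factors, -0.0447 with library size alone, -0.014 with DESeq2, -0.011 without the block, -0.016 with each line alone, -0.024 with all 26 libraries and -0.12 without day 5, within -0.12 to 0.062, none of which passed the threshold. The mean ratio of EGFR ligand to receptor transcripts in EA3 with alectinib went from 0.988 to 1.28 with the length of the longest transcript. The causes of the other changes were not tested. The depth limits Egfr and Erbb3 in EA2, Btc in EA2 with alectinib, and Epgn.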

Other observations

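In the pair of libraries labelled EA3 day 7, Egfr had 3 counts in DMSO and 51 with alectinib, and Erbb3 26 and 9. Areg stood at 252 and 6.61 CPM, Btc at 40.1 and 0.848 CPM, Hbegf at 382 and 30.8 CPM, Ereg at 203 and 46.1 CPM, Tgfa at 60.8 and 6.27 CPM and Erbb2 at 48.4 and 59.5 CPM. On days 1 to 5, by contrast, EA3 libraries held 141 to 759 counts of Egfr and 292 to 647 counts of Erbb3.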
